A study of Mus musculus with 6 samples.

Results

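Endothelial genes were examined in RNA from the proximal incisor of 6 mice, namely 3 controls (Runx2fl/fl) and 3 mice that also carried Gli1-CreERT2 (Gli1-CreERT2;Runx2fl/fl), abbreviated cKO. The genes were taken by name from a list of 34 endothelial names. Of these, 33 matched a row among the 25700 genes of the deposited count table; Eltd1 is the older symbol of Adgrl4 and was counted once under that name. They comprise 25 pan-endothelial genes, 4 genes of capillary endothelium (Emcn, Plvap, Apln and Aplnr), 2 arterial genes (Gja5 and Sox17) and 2 lymphatic genes (Flt4 and Prox1). All 33 passed the filter on low counts and were tested. Both groups were 5-week-old C57BL/6 mice carrying a floxed Runx2 gene, a transcription factor of bone and tooth mesenchyme, and the treatment protocol, given for every sample, is tamoxifen on 3 consecutive days at 1 month of age. Tissue was taken 1 week after induction. In cKO mice the drug switches on Cre wherever Gli1 is expressed; Gli1 is a hedgehog pathway factor that marks mesenchymal stem cells of the incisor. Since controls carried no Cre, the loss of Runx2 and any effect of the Cre allele itself cannot be told apart. The labels do not say whether Cre was active in endothelial cells.

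Endothelial cells line blood and lymphatic vessels. They are held together by VE-cadherin (Cdh5) and PECAM-1, respond to vascular endothelial growth factors (VEGFs) through the receptor tyrosine kinases Flt1, Kdr and Flt4, and to angiopoietins through Tek, with Tie1 as its partner. ETS factors such as Erg and Fli1 and SOX factors such as Sox17 and Sox18 maintain their gene programme. The growing incisor has a dense capillary bed in its pulp and beside its enamel-forming cells.

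The labels name the tissue dental mesenchyme, and all 10 listed genes of dental mesenchyme were detected in every library, with Barx1 as the lowest (0.567 to 1.89 CPM, the count scaled to library size). Genes of dental epithelium were abundant too: 9 of them, mostly enamel matrix genes, summed to 61800 to 81980 CPM in controls, against 23750 to 48760 CPM in the cKO. Single libraries stood apart. Control 1 was the 1 male (4059 counts of the Y-linked gene Ddx3y against at most 1 in the others) and held 405 CPM of skeletal muscle genes against 12.3 to 16.5 CPM elsewhere. Control 2 held more of 6 enamel genes (2307 CPM) than the other controls (643 and 670 CPM), and the cKO mice had 1528 to 3095 CPM. Neutrophil genes summed to 48.4 CPM in cKO 1 and 22.9 CPM in cKO 2, against 3.25 CPM in cKO 3 and 2.53 to 3.77 CPM in controls. Total counts ran from 53525185 to 66694240, and the targeted gene Runx2 measured 79.7, 77.7 and 81.2 CPM in controls, against 62.6, 54.0 and 49.0 CPM in the cKO (edgeR log2 fold change -0.53, SE 0.089, adjusted p = 0.0714). Gli1, whose locus drives the Cre, measured 159, 89.7 and 207 CPM in controls, against 75.0, 77.9 and 70.6 CPM in the cKO, without overlap (-1.03, SE 0.27, edgeR adjusted p = 0.131).

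No endothelial gene passed the threshold over all genes, yet most were slightly higher in cKO mice. edgeR's quasi-likelihood test called 0 of the 33 at an adjusted p under 0.05, against 0.026% of all 19264 tested genes, and the lowest adjusted p among the 33 was 0.0819. The log2 fold change was above 0 for 30 of the 33, against 50% of all tested genes. The median log2 fold change was 0.26, and it was 0 over all tested genes. At an unadjusted edgeR p under 0.05, 20 were higher and 1 was lower, against 8.71% and 8.55% of all genes. DESeq2 called 12 of the 33 higher, against 3.93% of all genes with an adjusted p, and 1 lower, against 3.55%. limma-voom called 0, against 0.0208% of all genes. The edgeR count of 20 higher was 21, 18 and 16 without controls 1, 2 and 3, against 8.22%, 8.43% and 6.25% of all genes. It was 17, 20 and 13 without cKO 1, 2 and 3, against 8.52%, 7.31% and 6.79% of all genes.

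The median log2 fold change was 0.26 for the 25 pan-endothelial, 0.23 for the 4 capillary and 0.32 for the 2 arterial genes, while Flt4 was lower. Every cKO mouse was above every control for 19 of the 33 genes, against 11.1% of all genes, and below for Flt4 alone, against 12% of all genes. In the controls the 33 genes summed to 1664, 1585 and 1575 CPM, and in the cKO mice to 1888, 1817 and 1909 CPM. The lowest cKO sum thus lay above the highest control sum. Of the 33 genes, 16 were highest in cKO 3, 11 in cKO 1, 3 in cKO 2 and 3 in a control. In bulk tissue a larger number of endothelial cells cannot be told apart from more RNA of these genes per cell, nor from less RNA of other cells.

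**Figure D1:**
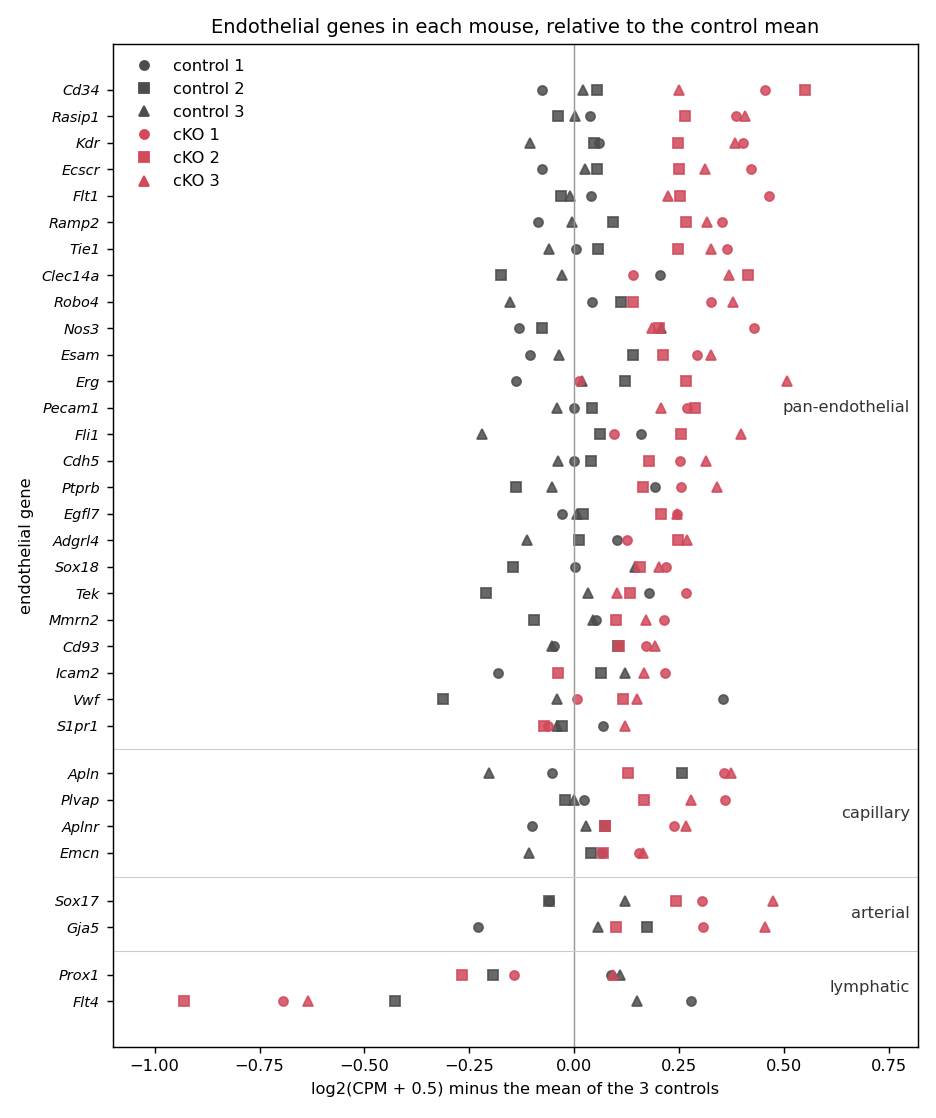
Each row is an endothelial gene and each point a mouse; the horizontal axis is log2(CPM + 0.5) minus the mean of the 3 controls, so 0 is the control mean. Points of cKO mice (red) lie to the right of the control points (grey) for 19 genes and to the left for Flt4. For all remaining genes, among them Tek, Icam2, Gja5, S1pr1, Vwf and Prox1, the groups overlap.

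The junction genes Cdh5 and Pecam1 were higher in every cKO mouse. Cdh5 (chromosome 8, 104101625 to 104144511, build mm10), which encodes VE-cadherin, measured 123, 126 and 120 CPM in controls, against 146, 139 and 153 CPM in the cKO. Pecam1 (chromosome 11, 106654217 to 106750628), an adhesion molecule of the same junctions, measured 94.3, 97.3 and 91.6 CPM in controls, against 114, 115 and 109 CPM in the cKO. For both genes the lowest cKO value lay above the highest control value. Cdh5 was 1.19-fold higher (log2 fold change 0.25, SE 0.056) with an edgeR adjusted p of 0.102, which ran from 0.00776 with DESeq2 to 0.259 over the alternatives. Pecam1 was also 1.19-fold higher (0.26, SE 0.050) with an edgeR adjusted p of 0.0878, running from 0.00191 with DESeq2 to 0.219. Esam, an adhesion molecule of endothelial tight junctions, averaged 31.1 ± 2.82 CPM (SD, n = 3) in controls and 37.7 ± 1.54 CPM in cKO mice without overlap. For Icam2, a ligand of leukocyte integrins, the values were 8.45 ± 0.969 and 9.18 ± 0.882 CPM and the groups overlapped.

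The 2 VEGF receptors of blood vessels were higher in every cKO mouse. Kdr (chromosome 5, 75932827 to 75978458), the main signalling receptor for VEGF-A, measured 94.5, 93.8 and 84.3 CPM in controls, against 120, 108 and 119 CPM in the cKO. Flt1 (chromosome 5, 147561604 to 147726011), which binds VEGF-A and also acts as a decoy, measured 76.1, 72.4 and 73.5 CPM in controls, against 102, 88.2 and 86.5 CPM in the cKO. For both the lowest cKO value was above the highest control, and cKO 1 was the highest mouse. Kdr was 1.27-fold higher (log2 fold change 0.35, SE 0.069; edgeR adjusted p = 0.0878, from 0.00246 with DESeq2 to 0.205 over the alternatives). Flt1 was 1.25-fold higher (0.32, SE 0.073; edgeR adjusted p = 0.107, from 0.0120 with DESeq2 to 0.254). The ratio of Kdr to Flt1 CPM within a library overlapped between groups, with means of 1.23 ± 0.0752 and 1.26 ± 0.103 (SD, n = 3).

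The angiopoietin receptors differed in how well the groups parted. Tie1 (chromosome 4, 118471191 to 118490061) had the lowest p of the 33, with 48.9, 50.8 and 46.8 CPM in controls, against 62.9, 58.0 and 61.2 CPM in the cKO. That is 1.24-fold higher (log2 fold change 0.31, SE 0.056; edgeR adjusted p = 0.0819, from 0.00115 with DESeq2 to 0.198). Tek (chromosome 4, 94739289 to 94874976), the receptor that binds angiopoietins, measured 41.0, 31.2 and 37.0 CPM in controls, against 43.6, 39.7 and 38.8 CPM in the cKO. Control 1 lay among the cKO values for Tek, and its log2 fold change of 0.16 (SE 0.10, edgeR adjusted p = 0.476) was 0.063 without control 2. Ptprb, the phosphatase VE-PTP that acts on Tek and VE-cadherin, overlapped as well, at 127 ± 15.5 and 151 ± 9.23 CPM (log2 fold change 0.25, SE 0.095).

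The sequence before the start site is shown for the receptors Kdr, Flt1 and Tek and for Cd34, the gene with the highest fold change. In these the RefSeq start site lies at or within 3 bases of the start of the GENCODE M21 gene. Sequences are from RefSeq, build GRCm38.p6 (the assembly of mm10), on the strand of the gene, 5′ to 3′, and end before the transcribed part. Capitals mark the core of sites bound by ETS factors, GGAA or its reverse complement TTCC.
Kdr, chr5:75978459-75978705, minus strand: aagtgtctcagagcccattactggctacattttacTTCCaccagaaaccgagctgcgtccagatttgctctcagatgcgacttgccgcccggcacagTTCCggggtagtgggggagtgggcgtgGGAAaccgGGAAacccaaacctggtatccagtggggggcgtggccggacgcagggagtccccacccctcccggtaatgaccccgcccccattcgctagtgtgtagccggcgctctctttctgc
Flt1, chr5:147726012-147726261, minus strand: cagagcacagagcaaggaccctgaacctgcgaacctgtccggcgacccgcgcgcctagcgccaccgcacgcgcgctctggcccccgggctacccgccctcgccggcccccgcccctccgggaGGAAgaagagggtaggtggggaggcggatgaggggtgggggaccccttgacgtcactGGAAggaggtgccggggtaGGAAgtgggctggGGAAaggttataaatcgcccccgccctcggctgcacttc
Tek, chr4:94739039-94739288, plus strand: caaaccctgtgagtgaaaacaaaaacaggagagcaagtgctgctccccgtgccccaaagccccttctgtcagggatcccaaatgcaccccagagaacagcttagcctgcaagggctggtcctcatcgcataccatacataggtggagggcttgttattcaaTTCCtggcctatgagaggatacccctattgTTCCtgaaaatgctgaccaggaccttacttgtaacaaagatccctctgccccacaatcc
Cd34, chr1:194938571-194938818, plus strand: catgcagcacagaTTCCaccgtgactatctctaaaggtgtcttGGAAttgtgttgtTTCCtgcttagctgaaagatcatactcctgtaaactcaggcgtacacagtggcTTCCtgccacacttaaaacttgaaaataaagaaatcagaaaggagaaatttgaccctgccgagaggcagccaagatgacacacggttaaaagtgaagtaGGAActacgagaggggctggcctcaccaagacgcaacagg
The core occurs 4 times before Kdr, 4 times before Flt1, 2 times before Tek and 5 times before Cd34. It is common: 93.4% of 32851 windows of 250 bases before start sites hold it on either strand. RefSeq windows were matched for 16 of the 33 genes, some with several start sites, and 20 of their 21 windows hold the core. The longer form AGGAAG, which contains the core, was found in 12 of the 21 against 29.5% of all windows. Windows of the same gene are counted separately, and the 12 belong to 11 of the 16 genes. The letters TGTGGT, a core of RUNX sites, were found on either strand in 1 of the 21 (Apln) against 14% of all windows. A match says only that the letters are present, and whether any such site bears on the fold changes was not tested.

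The remaining surface and secreted pan-endothelial genes mostly sat a little above the controls. Cd34 (chromosome 1, 194938819 to 194961279), a sialomucin of capillaries that blood progenitors and some mesenchymal cells also make, measured 87.8, 96.2 and 93.9 CPM in controls, against 127, 136 and 110 CPM in the cKO. It had the highest fold change of the 33, at 1.34 (log2 fold change 0.42, SE 0.085; edgeR adjusted p = 0.0878, from 0.00139 with DESeq2 to 0.209). The groups did not overlap and the cKO mice were spread more widely than the controls. Egfl7 (chromosome 2, 26580014 to 26593120), a matrix protein secreted by endothelium, measured 45.5, 47.1 and 46.6 CPM in controls, against 55.0, 53.6 and 55.1 CPM in the cKO (log2 fold change 0.23, SE 0.046; edgeR adjusted p = 0.0878, from 0.00368 with DESeq2 to 0.211). Each group of Egfl7 values spanned less than 2 CPM. Ramp2 (chromosome 11, 101246028 to 101259546), a subunit of the adrenomedullin receptor, measured 26.2, 29.7 and 27.7 CPM in controls, against 35.6, 33.5 and 34.7 CPM in the cKO (0.31, SE 0.066; edgeR adjusted p = 0.0934, from 0.00549 with DESeq2 to 0.227). Of the exonic bases of Egfl7 11.2%, and of Ramp2 33.4%, also lie in exons of other genes, so reads there could belong to those genes. The largest overlaps were with Gm20532 for Egfl7 and with Vps25 for Ramp2.

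The cell surface protein Ecscr averaged 9.78 ± 0.486 CPM in controls, against 12.4 ± 0.782 CPM in the cKO (SD, n = 3), and the guidance receptor Robo4 23.5 ± 2.23 and 28.6 ± 2.47 CPM, both without overlap. The orphan adhesion receptor Adgrl4 (28.1 ± 2.12 and 32.6 ± 1.72 CPM), the lectin-like receptor Cd93 (110 ± 6.94 and 122 ± 3.73 CPM) and its matrix ligand Mmrn2 (38.7 ± 2.24 and 43.4 ± 1.77 CPM) also did not overlap, with log2 fold changes of 0.22, 0.16 and 0.16. Clec14a, another receptor that binds Mmrn2, overlapped at 52.9 ± 7.16 and 65.4 ± 6.55 CPM. Nos3, the endothelial nitric oxide synthase, averaged 10.5 ± 1.42 and 12.7 ± 1.28 CPM and overlapped. Of its exonic bases 32.3% also lie in exons of other genes, the largest overlap being with an antisense transcript.

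Regulators inside the cell were higher in every cKO mouse or overlapped. Rasip1 (chromosome 7, 45627488 to 45639093), a Ras-interacting protein needed for vessel lumens, measured 19.2, 18.2 and 18.8 CPM in controls, against 24.6, 22.6 and 25.0 CPM in the cKO. The groups stood well apart at 1.28-fold (log2 fold change 0.36, SE 0.066, edgeR adjusted p = 0.0819, from 0.000987 with DESeq2 to 0.198). However, 42.9% of its exonic bases also lie in exons of other genes, Izumo1 having the largest overlap. The ETS factor Erg measured 21.3, 25.6 and 23.9 CPM in controls, against 23.7, 28.4 and 33.7 CPM in the cKO, so the groups overlapped, and its log2 fold change of 0.28 (SE 0.13) was 0.14 without cKO 3. Fli1, the related ETS factor that blood cells also express, overlapped at 18.8 ± 2.55 and 22.4 ± 2.40 CPM. Sox18, a factor of vessel and lymphatic development, averaged 22.8 ± 2.34 and 26.1 ± 0.581 CPM (log2 fold change 0.19, SE 0.084) without overlap.

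S1pr1 and Vwf showed next to no difference between the means. S1pr1, the sphingosine-1-phosphate receptor that stabilises vessels and that lymphocytes also carry, measured 108, 101 and 100 CPM in controls, against 98.6, 97.9 and 112 CPM in the cKO (log2 fold change -0.0027, SE 0.069; edgeR adjusted p = 0.989). Vwf, the clotting factor stored by endothelium and platelets, measured 115, 71.8 and 86.9 CPM in controls, against 89.8, 96.9 and 99.2 CPM in the cKO (0.066, SE 0.16; edgeR adjusted p = 0.868). Control 1 was the highest mouse for Vwf and control 2 the lowest, and the direction turned without control 2 (-0.080).

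Among capillary genes, Plvap parted the groups most clearly. Plvap (chromosome 8, 71497765 to 71511752), which forms the diaphragms of capillary fenestrae, measured 78.0, 75.5 and 76.7 CPM in controls, against 98.6, 86.2 and 93.2 CPM in the cKO. It was 1.21-fold higher (log2 fold change 0.27, SE 0.061; edgeR adjusted p = 0.102, from 0.0118 with DESeq2 to 0.244). Emcn (chromosome 3, 137341067 to 137432185), a sialomucin of capillaries and veins, measured 47.1, 46.3 and 41.7 CPM in controls, against 50.1, 47.2 and 50.5 CPM in the cKO. The cKO mice were above the controls by a narrow margin, and the log2 fold change of 0.13 (SE 0.064, edgeR adjusted p = 0.360) was 0.076 without control 3. The peptide Apln, made by sprouting tip cells, averaged 19.1 ± 3.26 and 23.2 ± 2.18 CPM, and its receptor Aplnr 39.9 ± 2.50 and 45.7 ± 3.27 CPM; both overlapped.

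Both arterial genes had positive fold changes. Sox17 (chromosome 1, 4490931 to 4497354), a transcription factor of arterial endothelium, measured 10.4, 10.4 and 11.9 CPM in controls, against 13.5, 12.9 and 15.3 CPM in the cKO. The groups did not overlap (log2 fold change 0.35, SE 0.098, edgeR adjusted p = 0.144, from 0.0355 with DESeq2 to 0.368). Of the exonic bases of Sox17 16.8% also lie in exons of other genes, the largest overlap being with the antisense gene Gm37587. Gja5 (chromosome 3, 96904693 to 97077416), the arterial gap junction protein connexin 40, measured 17.6, 23.4 and 21.6 CPM in controls, against 25.7, 22.2 and 28.6 CPM in the cKO. Here cKO 2 lay below control 2, and the log2 fold change of 0.29 (SE 0.13, edgeR adjusted p = 0.314) was 0.19 without control 1. Of 10 other arterial genes 7 had a log2 fold change above 0 and 3 below, with a median of 0.24. With edgeR 0 passed and 4 were higher at an unadjusted p under 0.05, against 8.71% of all genes. DESeq2 called 1 higher, against 3.93% of all genes with an adjusted p. That gene was Notch4, a Notch receptor of endothelium, 1.28-fold higher without overlap (log2 fold change 0.35, edgeR adjusted p = 0.115, from 0.0162 with DESeq2 to 0.278). The secreted semaphorin Sema3g had the next lowest p, at 36.9 ± 4.06 and 44.9 ± 1.66 CPM. The 3 below 0 were the ephrin ligand Efnb2 (-0.24), the Notch ligand Jag1 (-0.11) and Hey2 (-0.013), a Notch target, all with overlap.

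Of the 3 genes with a log2 fold change below 0, Flt4, Prox1 and S1pr1, only Flt4 did not overlap between groups. Flt4 (chromosome 11, 49609263 to 49652739) encodes the receptor for VEGF-C and VEGF-D, which marks lymphatic vessels and is also found on sprouting and fenestrated blood capillaries. It measured 50.9, 31.1 and 46.6 CPM in controls, against 25.7, 21.8 and 26.8 CPM in the cKO. All cKO mice were below all controls, and control 2 was the control nearest to them. The means were 42.9 ± 10.5 and 24.8 ± 2.66 CPM (SD, n = 3), a log2 fold change of -0.79 (SE 0.18, edgeR adjusted p = 0.108). The adjusted p ran from 0.00153 with DESeq2 to 0.261, and Flt4 passed with edgeR without control 2 (-0.98, adjusted p = 0.0385). Within a library the ratio of Flt4 to Kdr CPM was 0.539, 0.331 and 0.552 in controls and 0.215, 0.202 and 0.226 in cKO mice, again without overlap.

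Prox1 (chromosome 1, 190118035 to 190170714), the transcription factor that sets lymphatic identity, was at 0.875, 0.631 and 0.895 CPM in controls, against 0.672, 0.576 and 0.881 CPM in the cKO. These are 36 to 55 counts per library, and the groups overlapped (log2 fold change -0.17, SE 0.24; edgeR adjusted p = 0.771). Per kilobase of exon the control mean of Flt4 was 5.21 CPM and that of Prox1 0.0954 CPM. Of 9 other lymphatic genes tested 7 had a log2 fold change below 0 and 2 above, with a median of -0.13. With edgeR and with DESeq2 0 passed. Of the 7 below 0, Sema3d, Itga9, Tbx1, Pdpn and Reln averaged 29.5 to 81.6 CPM in controls. Foxc2 and Mmrn1 averaged 3.95 and 2.19 CPM, and Prox1 0.801 CPM. Which cells of the bulk tissue made these transcripts was not tested, so the 7 need not stand for lymphatic vessels. Lower at an unadjusted edgeR p under 0.05 was 1 of the 9, against 8.55% of all genes. That gene, the lymphatic valve factor Foxc2, measured 4.67, 2.78 and 4.41 CPM in controls, against 2.49, 2.61 and 2.71 CPM in the cKO, and the semaphorin Sema3d had the next lowest p (log2 fold change -0.22). The 2 above 0 were the hyaluronan receptor Lyve1 (0.24), which some macrophages also carry, and Nr2f2 (0.087), a venous and lymphatic transcription factor, both with overlap. The lymphatic chemokine Ccl21a was too low to test, at 0 to 14 counts per library.

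The ligands of these receptors went in both directions. Vegfa, which signals through Kdr and Flt1, measured 89.3, 92.7 and 98.8 CPM in controls, against 127, 96.0 and 103 CPM in the cKO, with overlap (log2 fold change 0.22, SE 0.11; edgeR adjusted p = 0.360), and the difference was 0.088 without cKO 1. Of the Flt4 ligands, Vegfc overlapped at 15.2 ± 0.628 and 15.6 ± 2.89 CPM (0.044, SE 0.13) and Vegfd did not. Vegfd measured 0.782, 1.50 and 0.929 CPM in controls, against 3.10, 3.12 and 2.69 CPM in the cKO, a 2.76-fold higher mean in the fit (log2 fold change 1.46, SE 0.25). Its edgeR adjusted p was 0.0744, from 1.76e-05 with DESeq2 to 0.198, and it passed without control 2 (0.0385 with edgeR).

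Angpt2, the angiopoietin made by activated endothelium that can block Tek, was lower in every cKO mouse. It measured 18.4, 13.2 and 13.4 CPM in controls, against 8.21, 9.17 and 7.46 CPM in the cKO (log2 fold change -0.86, SE 0.15; edgeR adjusted p = 0.0819, from 5.41e-05 with DESeq2 to 0.177). Angpt1, the activating ligand made by perivascular cells, overlapped at 69.6 ± 14.5 and 58.7 ± 9.42 CPM (-0.24, SE 0.17; edgeR adjusted p = 0.524), and the difference was -0.085 without control 1. Within a library the ratio of Angpt2 to Angpt1 CPM was 0.217 ± 0.0258 in controls and 0.142 ± 0.0148 in cKO mice, without overlap. This ratio leaves out Angpt4, another angiopoietin, which averaged 146 and 168 CPM with overlap (log2 fold change 0.20). In controls Angpt4 was at 62.6 CPM per kilobase of exon, against 13.4 for Angpt1 and 4.07 for Angpt2. Of the 10 ligands tested 8 had a log2 fold change above 0 and 2 below. With edgeR 0 passed, and 3 were higher and 1 lower at an unadjusted p under 0.05, against 8.71% and 8.55% of all genes. DESeq2 called 1 higher (Vegfd) and 1 lower (Angpt2), against 3.93% and 3.55% of all genes with an adjusted p. The others at an unadjusted edgeR p under 0.05 were Pdgfb (0.29, without overlap), which recruits pericytes, and Pgf (0.53, with overlap), a ligand of Flt1.

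**Figure D2:**
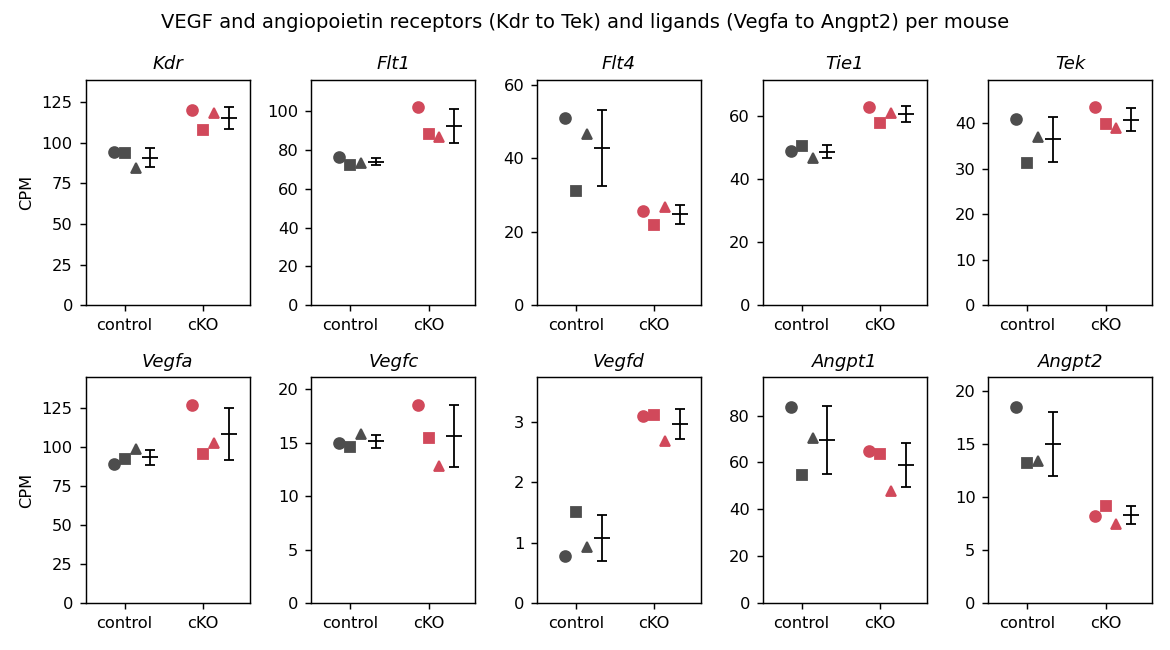
CPM (vertical axes, from 0) of 5 receptors and 5 ligands in each mouse, with circles, squares and triangles for mice 1 to 3 of a group and bars for the mean and SD of 3 mice. Kdr, Flt1, Tie1 and Vegfd were higher in every cKO mouse, Flt4 and Angpt2 were lower in every cKO mouse, and Tek, Vegfa, Vegfc and Angpt1 overlapped.

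Endothelial genes outside the 33 were read from lists of the same cell types. Of 32 other pan-endothelial genes 28 had a log2 fold change above 0, with a median of 0.27. edgeR called 0 of them, and DESeq2 called 9 higher, against 3.93% of all genes with an adjusted p. At an unadjusted edgeR p under 0.05, 19 were higher and 1 lower, against 8.71% and 8.55% of all genes. The scavenger receptor Stab1, which some macrophages also carry, measured 172, 167 and 139 CPM in controls, against 220, 214 and 244 CPM in the cKO (log2 fold change 0.50, SE 0.096; edgeR adjusted p = 0.0831, from 0.000315 with DESeq2 to 0.185). Endoglin (Eng), a TGF-beta co-receptor, averaged 114 ± 7.28 and 141 ± 5.63 CPM (0.30, edgeR adjusted p = 0.0935), and was also the first of the 5 VEGF and related co-receptors by p, ahead of Nrp1 (0.22). Stab1 and Eng did not overlap between groups.

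Of 13 other capillary and tip cell genes 11 were above 0. Of these 13, 4 were higher at an unadjusted edgeR p under 0.05, against 8.71% of all genes. edgeR called 0 and DESeq2 called 3 higher, against 3.93% of all genes with an adjusted p. Dll4, the Notch ligand of tip cells and arteries, measured 20.9, 21.0 and 18.6 CPM in controls, against 26.4, 25.6 and 29.4 CPM in the cKO (log2 fold change 0.43, SE 0.081; edgeR adjusted p = 0.0822, from 0.00092 with DESeq2 to 0.198). The tight junction protein Cldn5 averaged 18.7 ± 1.08 and 23.4 ± 2.24 CPM (0.32, edgeR adjusted p = 0.138). Among 8 venous genes 7 were above 0, and 1 was higher at an unadjusted edgeR p under 0.05, against 8.71% of all genes. edgeR called 0 and DESeq2 called 1 higher, against 3.93% of all genes with an adjusted p. That was E-selectin (Sele), a leukocyte adhesion molecule of inflamed endothelium, with 30, 31 and 32 counts in controls and 82, 82 and 68 in cKO mice (1.21, SE 0.18; edgeR adjusted p = 0.0649, from 0.00105 with DESeq2 to 0.165). Vwa1 was next, at a log2 fold change of 0.29.

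Genes of other cell types that lie near vessels or in blood also differed in level, and their part in the endothelial differences was not tested. All 10 macrophage genes and all 8 pan-leukocyte genes were above 0, with medians of 0.56 and 0.45. Their sums were 516 to 682 and 160 to 172 CPM in controls, against 830 to 1026 and 214 to 227 CPM in the cKO. edgeR called 0 of either, and DESeq2 called 9 and 5 higher, against 3.93% of all genes with an adjusted p. No macrophage or leukocyte gene was at 0 in any library. The lowest p belonged to Cd68 and Lyz2 (log2 fold changes 0.60 and 0.62) and to Tyrobp and Laptm5 (0.54 and 0.50). Of the 33 endothelial genes, Pecam1, Cd34, Fli1, Erg, Icam2, Cd93 and S1pr1 are also made by some blood cells. Platelet genes were low, at 14.6 to 15.9 and 17.2 to 19.4 CPM. Their lowest p belonged to Pf4 (0.43) and Itga2b (0.32). Erythroid genes summed to 30.5 to 57.0 CPM in controls and to 88.6, 121 and 37.3 CPM in cKO 1 to 3, with Slc4a1 (0 to 4 counts in controls and 13 to 28 in the cKO) and Alas2 (1.16) lowest in p. Neutrophil genes, led by S100a9 (3.50) and S100a8 (3.28), were high in cKO 1 and cKO 2 only.

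Genes of the mural cells around vessels differed in direction between pericytes and smooth muscle. Of 11 pericyte genes 9 were above 0, with a median of 0.18 and sums of 1095 to 1115 CPM in controls, against 1102 to 1254 CPM in the cKO. Cspg4, the proteoglycan NG2, averaged 61.2 ± 3.72 and 73.8 ± 2.85 CPM (edgeR adjusted p = 0.105), and Notch3 had a log2 fold change of 0.19. All 8 smooth muscle genes were below 0, with a median of -1.03 and sums of 389 to 586 CPM in controls, against 223 to 299 CPM in the cKO. Of the 8, 5 were lower without overlap, while Des (-2.88), Lmod1 (-0.21) and Smtn (-0.17) overlapped between groups. Des had 636 counts in control 1, the library high in skeletal muscle genes, against 30 to 50 in every other mouse. Cnn1 (-2.86) and Acta2 (-1.26) had the lowest p. edgeR called 0 of either list. DESeq2 called 2 pericyte genes higher and 5 smooth muscle genes lower, against 3.93% and 3.55% of all genes with an adjusted p.

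**Figure D3:**
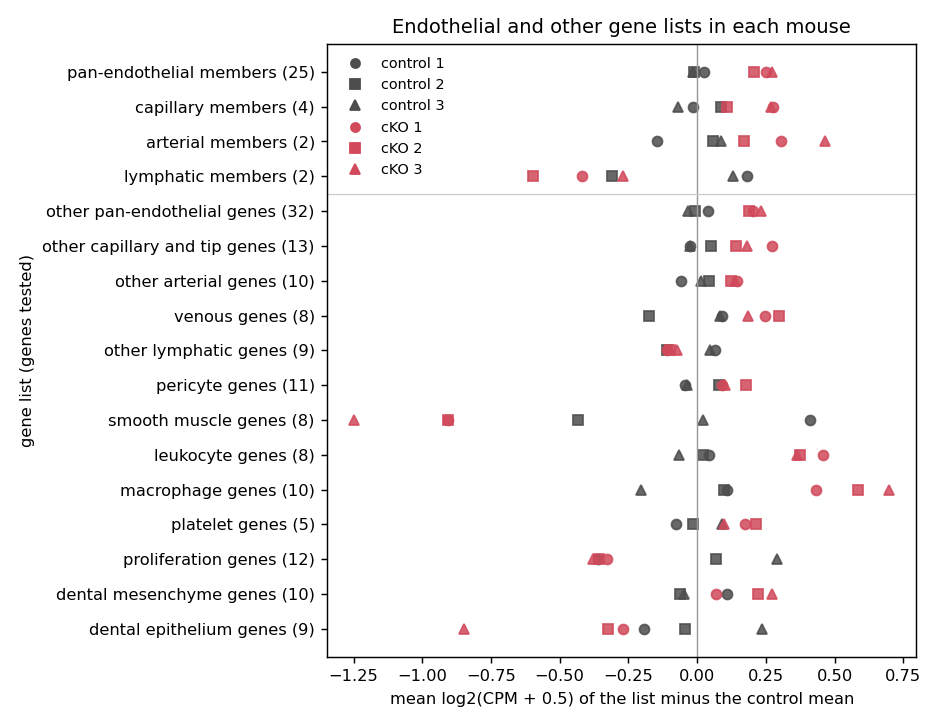
Each row is a gene list with the number of its genes tested, and each point is a mouse; the horizontal axis is the list's mean log2(CPM + 0.5) minus the control mean. The pan-endothelial, arterial and capillary members of the 3 cKO mice lie above 0, as do macrophage and leukocyte genes, and smooth muscle, proliferation and dental epithelium genes of the cKO mice lie below 0; for proliferation genes control 1 lies among the cKO mice.

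Genes of proliferation and of dental tissues differed in level too, and their part in the endothelial differences was not tested. All 12 proliferation genes were below 0 (median -0.40), with Pcna (-0.29) and Mcm3 (-0.42) lowest in p. Their sum overlapped between groups: control 1 was at the level of the cKO (425 CPM against 409 to 431 CPM), below controls 2 and 3 (572 and 653 CPM). Of 9 dental epithelium genes 7 were below 0 (median -0.40), led by Sp6 (-0.84) and Enam (-0.99). Of 10 dental mesenchyme genes 8 were above 0 (median 0.10), led by Pax9 (0.41) and Col1a1 (1.08). Of the 6 enamel genes, Mmp20 (-0.29) and Slc5a8 (-0.76) had the lowest p and were lower in every cKO mouse. Slc5a8 was near the floor, with 15 to 24 counts in controls and 9 to 13 in the cKO. Control 2 stood apart in the other 4, Slc24a4, Klk4, Amtn and Odam, whose log2 fold changes were 1.33 to 1.74 with overlap. Lowest in p among the muscle genes high in control 1 were Atp2a1 (-5.79) and Mylpf (-3.16), at -0.39 and -0.49 without that mouse. edgeR called 0 genes of these lists and of the platelet, erythroid and neutrophil lists. DESeq2 called 4 proliferation, 3 dental epithelium and 1 enamel gene lower, against 3.55% of all genes with an adjusted p. It called 4 dental mesenchyme, 4 neutrophil, 1 erythroid and 1 platelet gene higher, against 3.93%. The endothelial median of the 33 was 0.26 with both DESeq2 size factors and upper-quartile scaling, where the median over all genes was 0.0027 and 0.0068.

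Levels between genes were compared per kilobase of exon, using the union of exons in GENCODE M21. In controls Plvap was the highest of the 33, at 38.6 ± 0.614 CPM per kilobase (SD, n = 3), followed by S1pr1 (33.9 ± 1.43) and Cdh5 (29.2 ± 0.783). Cd93 and Pecam1 followed at 16.4 ± 1.04 and 15.2 ± 0.452, which differ by less than their SDs added together. The receptors Kdr (10.1 ± 0.629) and Tie1 (9.93 ± 0.407) did not differ beyond their spread, and Flt1 (5.48 ± 0.141) and Flt4 (5.21 ± 1.27) were lower and did not differ from each other beyond their spread. Arterial genes were near the bottom, with Gja5 at 3.63 ± 0.517 and Sox17 at 2.28 ± 0.176, and Prox1 was last. In cKO mice Flt4 was at 3.01 CPM per kilobase, below Gja5 at 4.44.

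**Figure D4:**
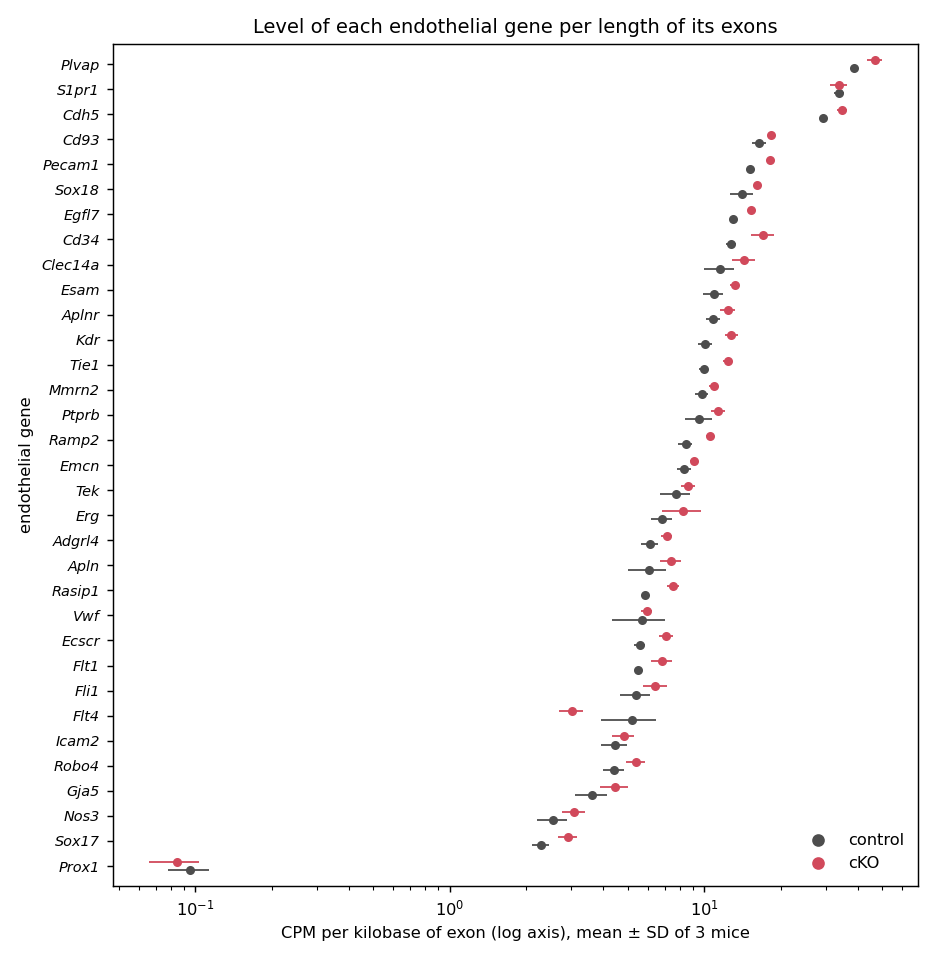
Mean and SD over 3 mice of each endothelial gene's level in CPM per kilobase of exon (log axis), for controls (grey) and cKO mice (red), ordered by the control mean. Plvap, S1pr1 and Cdh5 lead, Prox1 is far below the rest, and Flt4 is the gene whose cKO mean lies well to the left of its control mean.

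Set against the 25 pan-endothelial genes of the same library, most genes kept their share of the sum. The pan-endothelial sum was 1404, 1333 and 1319 CPM in controls, against 1602, 1563 and 1622 CPM in the cKO. Flt4 equalled 3.63%, 2.33% and 3.53% of it in controls and 1.61%, 1.39% and 1.65% in cKO mice. S1pr1 made up 7.70%, 7.58% and 7.59% in controls and 6.16%, 6.27% and 6.91% in cKO mice, so that a gene with equal CPM in both groups had a smaller share in every cKO mouse. Emcn equalled 3.33 ± 0.156% and 3.09 ± 0.0581% (SD, n = 3), also without overlap, and for Rasip1 the share was higher in every cKO mouse, at 1.51 ± 0.0536% against 1.39 ± 0.0304%. For Cdh5 the share was 9.09 ± 0.360% and 9.15 ± 0.270%, for Pecam1 6.99 ± 0.290% and 7.07 ± 0.331%, and both overlapped. Flt4, S1pr1, Emcn and Rasip1 were singled out after their shares were seen, shares within a sum are not independent, and no test was made of them.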

How the data were processed

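The authors deposited estimated counts per gene for 6 libraries; per the submitters' processing notes STAR 2.6.1d, Partek and build mm10 were used, and per the labels' protocols single-end reads of 75 cycles were made from RNA with integrity numbers above 9.0. For annotation and counting settings, nothing is given in the sources used here. In each library 48.2% to 50.8% of values were whole (within 0.001), and all were rounded. A second deposited table of scaled values was not used.

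Genes passing filterByExpr (minimum count 10, minimum total 15) numbered 19264. They were scaled by TMM and tested with edgeR 4.0.16 (quasi-likelihood, two-sided, Benjamini-Hochberg over all tested genes, threshold 0.05) in R 4.3.3. limma 3.58.1 (voom) and DESeq2 1.42.0 were alternatives, beside other scalings, filters and leaving out each mouse. CPM uses TMM-scaled library sizes; 1 count is worth 0.0149 to 0.0186 CPM. Standard errors were computed as the fold change over the root of F. Exon lengths and shared bases are from GENCODE M21. Shared bases count every overlapping gene, and the gene named is the one with the largest overlap. Ends of genes are the table's positions less 1. The scripts were tested on simulated data. Replicate libraries differed beyond counting noise (chi-square per degree of freedom 49.1 to 80.6 between mice of a group), and each counted as 1 replicate. Between mice of different groups it ran from 47.3 (control 2 with cKO 2) to 316 (control 3 with cKO 3). By this measure cKO 2 was thus as close to control 2 as mice of a group were to each other. Mice were numbered in accession order.

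The members and lists were chosen with earlier results of these data known, so no list was tested. Values per mouse are given for the 10 members of lowest p, for Cdh5, Pecam1 and the receptors, and for arterial and lymphatic members. Other lists give their 2 genes of lowest p, and the ligands also Vegfa, Vegfc, Angpt1 and Angpt2 whatever their p. Erg, Emcn, S1pr1, Vwf, Stab1, Dll4, Foxc2 and Sele are also given per mouse, and further genes of the ligand, arterial, lymphatic and enamel lists by fold change, choices made after their values were seen.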

Additional observations from a re-analysis of the deposited data

How the results depend on the processing

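Over 12 alternatives the 33 endothelial genes gave 395 values, of which 374 kept their direction and their side of the threshold, 14 passed where the main test did not and 7 turned direction. The 14 were 13 genes with DESeq2 and Flt4 without control 2. DESeq2 thus called 13 endothelial genes, leaving out single mice gave 0 to 1, and the other 5 alternatives gave 0. Over all genes DESeq2 called 1327 against 5, and leaving out single mice gave 0 to 72 (0 without control 1, cKO 1 or cKO 2, with 3103, 3278 and 2700 at an unadjusted p under 0.05; 3 without control 3; 8 without cKO 3; 72 without control 2). At an unadjusted p under 0.05, 13 to 21 endothelial genes were higher when single mice were left out (13 without cKO 3). The share of all genes higher at that p ran from 6.25% without control 3 to 8.52% without cKO 1. The median log2 fold change of the endothelial genes ran from 0.22 without cKO 3 to 0.29 without cKO 2. The log2 fold change of S1pr1 (main value -0.0027) turned direction with upper-quartile scaling (0.0044), no filter (0.0057) and a filter of 1 CPM (0.0024), and ran from -0.068 to 0.038 without single mice. The log2 fold change of Vwf ran from -0.080 to 0.27 and the log2 fold change of Vegfc from -0.097 to 0.17 without single mice. The cause was not tested. Prox1 had no value with the filter of 1 CPM, which it did not pass. No paired analysis was possible because the labels' protocol speaks of 3 pairs of samples but no label says which mice form a pair. Counts of 36 to 55 limit Prox1.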
